A study of Bos taurus with 6 samples.

Results

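The spindle checkpoint and the chromosomal passenger complex were followed through 10 genes, MAD2L1, BUB1, BUB1B, BUB3, TTK, CDC20, TRIP13, AURKB, BIRC5 and INCENP. The genes were taken by name from tables that list 32183 entries, and all 10 were present and high enough to be tested. MAD2L1 is the gene that the study itself singled out in these cultures, so its fall is no independent evidence, and the 9 partners are set against it. RNA had been sequenced from 6 cultures of rumen epithelial primary cells (REPC), of which 3 had received butyrate at 5 mM over 24 h and 3 served as untreated controls. Butyrate is a short-chain fatty acid made by rumen fermentation and an inhibitor of histone deacetylases. All cells came from a single Holstein bull calf, 2 weeks old and fed milk replacer, and no genetic change was made to either group. The cultures of both groups thus share the same animal, so the p-values measure only the spread between these cultures and none between animals.

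Expression was given as FPKM, a fragment count scaled by transcript length and library size. The tables hold no counts, and read totals were not used here, but the confidence bounds of the FPKM imply about 5756609 to 6186809 effective fragments per culture. This approximation reflects the precision of the FPKM and is not the sequencing depth, for which the paper reports a total of reads. Summed over all entries, FPKM came to 678035 to 681912 in the control cultures and 619401 to 629037 in the treated ones. Keratin genes were abundant in the controls, with a mean FPKM of 401 ± 30.7 for KRT5 and 3859 ± 87.0 for KRT17 (SD, n = 3), while the epithelial adhesion gene EPCAM was at 0.540 ± 0.174. Fibroblast markers were also detected, at a summed FPKM of 4371 to 4525 in controls and 6402 to 6747 after butyrate. Most of the control sum came from VIM, COL1A1, COL1A2 and COL3A1, with mean FPKM of 2464, 1149, 459 and 313. In controls DCN, FBLN1 and THY1 averaged 6.90, 14.3 and 21.5, and LUM, PDGFRA and PDGFRB only 0.149, 0.306 and 0.0203. Of all genes tested, 32.5% were higher in the butyrate cultures, and so were 9 of 9 tested fibroblast markers and 7 of 10 epithelial markers, counts that were 9 and 8 when FPKM were rescaled to a common sum and 7 and 6 under quantile normalization. KRT5 was lower, with a log2 fold change of -0.17 (limma adjusted p = 0.032), a call lost under both other scalings. Of the immune markers 1 of 5 passed the filter and was not called, with PTPRC listed at 0 in all 6 cultures. Of the endothelial markers 2 of 4 passed and both rose, with CDH5 listed at 0 throughout and a summed FPKM of 1.95 to 2.07 in controls and 6.48 to 8.43 after butyrate. Whether these other cell types were present, and what part they had in the results, was not tested.

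During mitosis, kinetochores that are not yet attached to spindle microtubules turn MAD2 (the product of MAD2L1) into a form that binds CDC20. MAD2, BUBR1 (from BUB1B), BUB3 and CDC20 then form the mitotic checkpoint complex, which blocks the anaphase-promoting complex (APC/C) and so holds sister chromatids together. The kinases TTK and BUB1 start the signal at the kinetochore, and the ATPase TRIP13 turns MAD2 back to its open form. The chromosomal passenger complex consists of the kinase AURKB, the scaffold INCENP, survivin (from BIRC5) and borealin (from CDCA8), and it releases wrongly attached microtubules. In the rumen epithelium, dividing cells lie in the basal layer.

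All 10 genes fell after butyrate by limma on log2(FPKM + 0.1), with a Benjamini-Hochberg adjusted p under 0.05. Of all 15813 genes tested, 25.9% were lower by the same threshold. The study tested with Cufflinks and defined a differentially expressed gene (DEG) by a Bonferroni-adjusted p under 0.05 with a log2 change of over 2. The same cutoffs were applied here to the limma fit, so the DEGs need not be those of the study. These cutoffs were met by 9 of the 10, whereas 1.51% of all genes tested were downregulated and 2.46% upregulated DEGs. A log2 fold change below -2 alone was found for 2.55% of all genes. The exception was BUB3. The count of DEGs was 6 to 9 over 14 alternatives, in some of which BUB1, TRIP13, INCENP or TTK did not meet the Bonferroni or fold limit. Every butyrate value lay below every control value for all 10 genes, a pattern seen in 28.9% of genes tested (the opposite pattern was seen in 36.1%), and an exact two-sided permutation test of 3 against 3 cultures gave its smallest possible p of 0.1 for each. The median log2 fold change of the 10 was -4.02, beside 0.10 over all genes tested. The summed FPKM of the 10 genes was 385.1 to 405.3 in controls and 74.8 to 82.3 after butyrate, and most of what was left was BUB3.

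**Figure D1:**
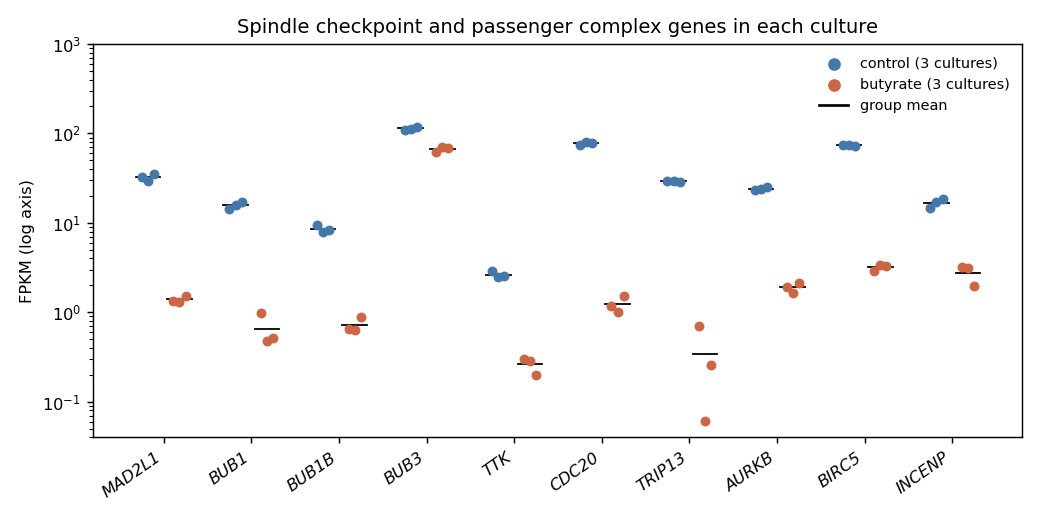
FPKM of each of the 10 genes in every culture, on a log axis, with control and butyrate cultures as separate points and a line at each group mean. The groups do not overlap for any gene, BUB3 stays at 61.6 or more in every butyrate culture, and TRIP13 shows the widest spread after butyrate.

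The markers of cycling cells moved with these genes. The proliferation antigen MKI67 was at 3.98 ± 0.244 FPKM in controls and 0.107 ± 0.0769 after butyrate (SD, n = 3 per group). Beside 1.51% of all genes tested, all 3 markers (MKI67, TOP2A, PCNA) were downregulated DEGs. Their summed FPKM was 76.0 to 80.8 in controls and 7.48 to 7.95 after butyrate. In bulk RNA, fewer mitotic cells and less RNA per cell cannot be told apart, and this holds for every change given here.

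MAD2L1 lies on chromosome 6 at chr6:6013172-6021411 of the bovine build UMD3.1, and the positions that follow are gene spans in the same build. The FPKM of MAD2L1 was 32.8, 29.2 and 34.9 in controls 1 to 3 and 1.34, 1.30 and 1.53 in butyrate cultures 1 to 3. The 3 treated cultures were close to one another and far from the controls. The mean went from 32.3 ± 2.87 to 1.39 ± 0.120 (SD, n = 3 per group), which is 4.30% of control or 23.2-fold lower. On the log2 scale MAD2L1 fell by 4.44 with a standard error (SE) of 0.12 (limma adjusted p = 4.0e-08), the 40th deepest fall of the 15813 genes. The 95% confidence bounds deposited with each FPKM reached 9.07% to 9.95% to either side of the value in controls and 41.6% to 47.6% after butyrate, so single treated values are far less precise.

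TRIP13 (chr20:71496252-71511345), the ATPase that opens closed MAD2, fell further. Its FPKM was 29.6, 29.7 and 28.6 in controls and 0.709, 0.0611 and 0.260 after butyrate. The controls hardly varied, while butyrate culture 1 was well above butyrate culture 2, and the deposited bounds of the latter, 0 to 0.183, did not reach those of the former, 0.281 to 1.14. The mean went from 29.3 ± 0.599 to 0.343 ± 0.332, or 1.17% of control. The log2 fold change was -6.35 with an SE of 0.48 (limma adjusted p = 7.9e-06), the deepest but for 1 of all genes tested. This place rests on the pseudocount, since with 1 in place of 0.1 TRIP13 changed by -4.53 and CDC20 by -5.15. Without butyrate culture 1 the treated mean was 0.160 FPKM, or 0.547% of control, and over the 14 alternatives the log2 fold change of TRIP13 ranged from -6.94 to -4.53. TRIP13 acts with the adaptor MAD2L1BP, which recognises closed MAD2 and was at 4.57 ± 0.984 FPKM in controls and 1.75 ± 0.388 after butyrate, a fall of 1.33 on the log2 scale (limma adjusted p = 0.00090). The FPKM ratio of TRIP13 to MAD2L1BP therefore moved from 8.46, 5.48 and 5.99 in controls to 0.498, 0.0280 and 0.157 after butyrate. The enzyme had more transcript than its adaptor in every control and less in every treated culture. MAD2L1BP itself went from 0.107, 0.186 and 0.137 of the MAD2L1 level to 1.06, 1.67 and 1.08. Relative to MAD2L1, 99.3% of all genes were higher after butyrate.

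The other members of the mitotic checkpoint complex did not fall evenly. CDC20 (chr3:103238482-103242469), the APC/C activator that the checkpoint captures, was at 74.5, 80.5 and 78.4 FPKM in controls and 1.17, 1.00 and 1.54 after butyrate. Every treated culture was far below every control, and the mean went from 77.8 ± 3.02 to 1.24 ± 0.274, which is 63.0-fold lower. CDC20 had the fifth deepest fall of all genes tested, with a log2 fold change of -5.89 (SE 0.14, limma adjusted p = 3.2e-08).

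BUB1B (chr10:35903021-35958915), which encodes the BUBR1 subunit, was at 9.44, 7.87 and 8.30 FPKM in controls and 0.649, 0.637 and 0.889 after butyrate. Mean FPKM went from 8.54 ± 0.810 to 0.725 ± 0.142 and the log2 fold change was -3.40 (SE 0.18, limma adjusted p = 1.1e-06). The treated cultures kept 8.50% of the control level, more than for MAD2L1 or CDC20. The span of BUB1B overlaps the entry LOC101905672, which was at 0.0499 ± 0.0432 FPKM in controls and 0.413 ± 0.107 after butyrate. Since the counting is not said to use strand, reads shared by the overlapping entries cannot be assigned with certainty.

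BUB3 (chr26:43276754-43288958) binds both BUB1 and BUBR1 and carries them to the kinetochore. Its FPKM was 110.2, 111.8 and 118.6 in controls and 61.6, 70.3 and 67.8 after butyrate. The groups did not overlap, but the gap was small beside those of the other genes. The mean went from 113.6 ± 4.46 to 66.6 ± 4.46, leaving 58.6% of control, and the log2 fold change was -0.77 (SE 0.06, limma adjusted p = 1.1e-05). Of all genes tested, 13.5% had a lower log2 fold change than BUB3. BUB3 was no DEG because its change did not reach the fold limit, although its Bonferroni-adjusted p was under 0.05 (limma, 0.017).

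The unequal falls changed the composition of the complex at the transcript level. BUB3 made up 48.9% ± 0.429 of the summed FPKM of MAD2L1, BUB1B, BUB3 and CDC20 in controls and 95.2% ± 0.751 after butyrate (SD, n = 3 per group). The share of CDC20 went from 33.5% ± 1.36 to 1.77% ± 0.389 and that of MAD2L1 from 13.9% ± 1.01 to 1.99% ± 0.188. The sum itself went from 232.2 ± 7.06 to 69.9 ± 4.51. BUB3 exceeded BUB1B by 11.7-, 14.2- and 14.3-fold in controls and by 94.9-, 110.4- and 76.2-fold after butyrate. These are transcript levels per length and say nothing of the protein.

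**Figure D2:**
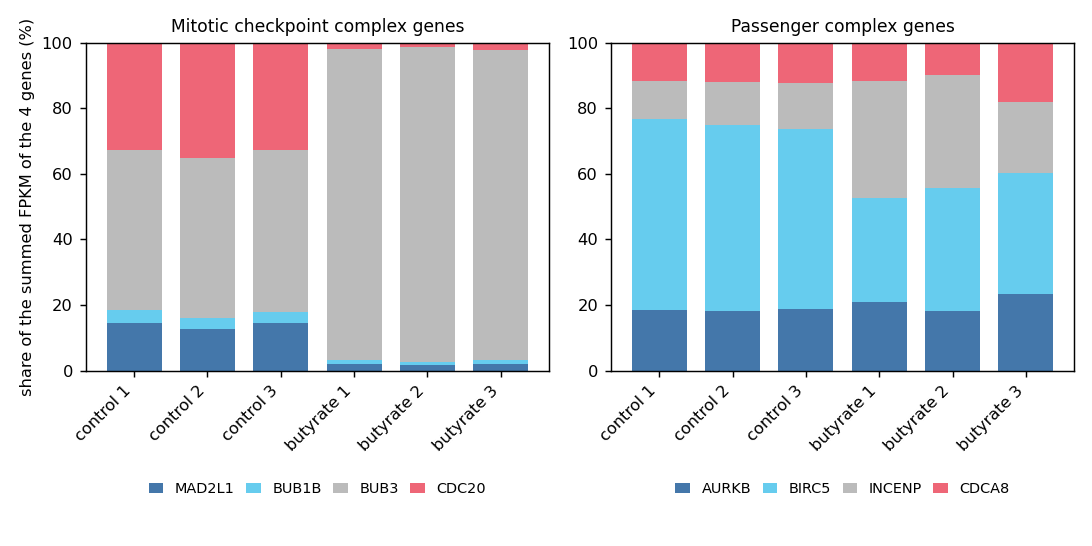
Share of each gene in the summed FPKM of the mitotic checkpoint complex genes and of the chromosomal passenger complex genes, in percent, as stacked bars, 1 for each culture. BUB3 takes a mean of 95.2% of the first sum after butyrate against 48.9% in controls, while BIRC5 goes from 56.6% to 35.4% of the second sum.

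Both checkpoint kinases fell. BUB1 (chr11:1559163-1592166), the kinetochore kinase that marks centromeric histone H2A and recruits shugoshin, was at 14.2, 15.8 and 17.2 FPKM in controls and 0.976, 0.476 and 0.513 after butyrate. Butyrate culture 1 was above the other two, and all were far below the controls. Its mean went from 15.7 ± 1.52 to 0.655 ± 0.278, which is 24.0-fold lower, and the log2 fold change was -4.45 (SE 0.24, limma adjusted p = 1.2e-06). The FPKM ratio of BUB3 to BUB1 was 7.76, 7.09 and 6.88 in controls and 63.2, 147.7 and 132.2 after butyrate.

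TTK (chr9:19943130-19994270), also known as MPS1, is the kinase at the head of the checkpoint signal and had the lowest control level of the 10 genes. Its FPKM was 2.91, 2.47 and 2.54 in controls and 0.302, 0.283 and 0.199 after butyrate. Its mean went from 2.64 ± 0.234 to 0.261 ± 0.0549, or 9.90% of control, and the log2 fold change was -2.93 (SE 0.24, limma adjusted p = 1.3e-05). A second entry of the same name lies inside this span at chr9:19972475-19978382, and its mean was 1.15 ± 0.126 in controls and 0.192 ± 0.0631 after butyrate (log2 fold change -2.11, limma adjusted p = 0.00036). Both entries moved down, but reads may have been split between them. The span also overlaps BCKDHB, which was at 111 ± 3.55 FPKM in controls and 92.5 ± 3.85 after butyrate, so the level of TTK is uncertain.

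The passenger complex genes fell by different amounts as well. AURKB (chr19:28447633-28452747), the kinase of the complex, was at 23.2, 23.9 and 25.0 FPKM in controls and 1.90, 1.65 and 2.13 after butyrate. The cultures of each group were close together, and mean FPKM was 24.0 ± 0.877 in controls and 1.89 ± 0.238 after butyrate (log2 fold change -3.60, SE 0.12, limma adjusted p = 1.0e-07). BIRC5 (chr19:54559530-54566816), which encodes survivin and docks the complex at centromeric histone H3, was at 73.3, 74.1 and 73.1 FPKM in controls and 2.90, 3.42 and 3.33 after butyrate. Mean FPKM went from 73.5 ± 0.544 to 3.21 ± 0.280, and BIRC5 had the smallest standard error of the 9 DEGs beside a log2 fold change of -4.48 (SE 0.09, limma adjusted p = 1.9e-08). BIRC5 and AURKB both lie on chromosome 19.

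INCENP (chr29:41299295-41329262), the scaffold that binds and activates AURKB, kept a larger share of its control level than the other 8 DEGs. Its FPKM was 14.8, 17.2 and 18.6 in controls and 3.23, 3.15 and 1.95 after butyrate. Butyrate culture 3 was below the other two. The mean went from 16.9 ± 1.91 to 2.77 ± 0.718, which is 16.4% of control, and the log2 fold change was -2.59 (SE 0.20, limma adjusted p = 7.6e-06). The remaining subunit, CDCA8, went from 15.5 ± 0.889 to 1.20 ± 0.399 FPKM, a fall of 3.63 on the log2 scale (limma adjusted p = 1.5e-06).

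The summed FPKM of AURKB, INCENP, BIRC5 and CDCA8 was 125.9, 131.1 and 132.9 in controls and 9.09, 9.10 and 9.05 after butyrate. The treated sums were nearly equal although their parts varied. Within the sum, the share of BIRC5 went from 56.6% ± 1.61 to 35.4% ± 3.1 and that of INCENP from 13.0% ± 1.12 to 30.5% ± 7.82. AURKB went from 18.5% ± 0.272 to 20.8% ± 2.68 and CDCA8 from 12.0% ± 0.353 to 13.2% ± 4.45, shifts smaller than the spread of the treated cultures. The FPKM ratio of BIRC5 to INCENP was 4.94, 4.30 and 3.93 in controls and 0.897, 1.09 and 1.71 after butyrate, and the groups did not overlap. BIRC5 exceeded AURKB by 3.15-, 3.1- and 2.93-fold in controls and by 1.52-, 2.07- and 1.57-fold after butyrate.

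**Figure D3:**
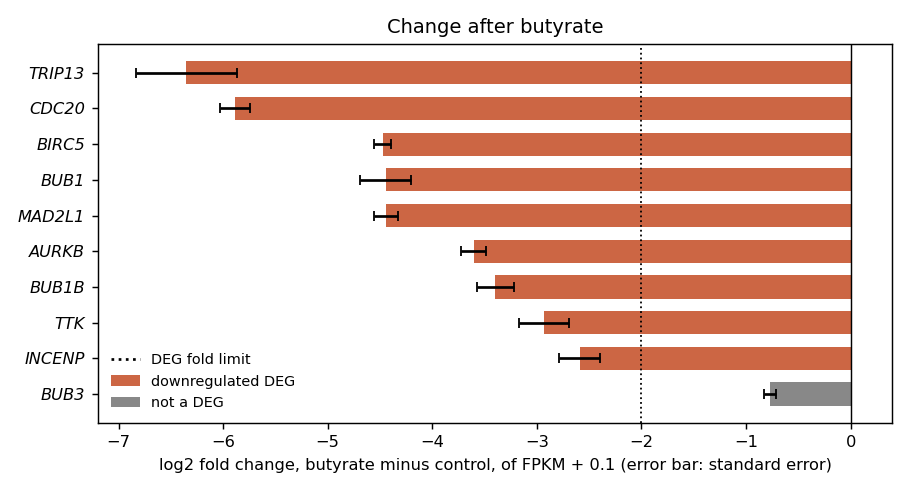
Log2 fold change (butyrate minus control) of FPKM + 0.1 for the 10 genes, as bars with standard errors from limma, ordered from the deepest fall. The dotted line marks the fold limit of a DEG, and BUB3 at -0.77 is the only bar that does not reach it.

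Each partner was then set against MAD2L1 by fitting limma to the log2 ratio of the 2 genes in each culture, so that a value above 0 means that the partner fell less than MAD2L1. All of these ratios share the MAD2L1 values, so their errors are not independent over genes, although the fit treats them so. The confidence intervals may therefore be too narrow and the p-values too small. Relative to MAD2L1, 99.3% of all genes were higher and 0.114% were lower after butyrate. Of the 9 partners, 5 fell less than MAD2L1, 2 fell more, and 2 were not told apart from it. The ratios of the 7 that differed did not overlap between groups, and each had an exact two-sided permutation p of 0.1, the smallest possible. How many of all genes had ratios to MAD2L1 without overlap was not counted. With 99.3% of all genes higher, a rise relative to MAD2L1 is the common case.

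CDC20 and TRIP13 were the partners that fell more, by differences of -1.44 (95% confidence interval -1.78 to -1.11, limma adjusted p = 5.7e-07) and -1.91 (-2.82 to -1.0, limma adjusted p = 0.00064). The FPKM of CDC20 was 2.27, 2.76 and 2.25 times that of MAD2L1 in controls and 0.872, 0.769 and 1.01 times after butyrate. TRIP13 was close to MAD2L1 in controls, at 0.903, 1.02 and 0.821 times, and below it after butyrate, at 0.528, 0.0469 and 0.170 times. The difference for TRIP13 ranged from -2.51 to -0.73 over the 14 alternatives and that for CDC20 from -1.54 to -1.35. Both the target of MAD2 and the enzyme that recycles it lost a larger share of their control level than MAD2L1 did.

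The partners that fell less were AURKB, BUB1B, TTK, INCENP and BUB3. The difference was 0.84 for AURKB (95% confidence interval 0.50 to 1.17, limma adjusted p = 0.00013), and its ratio to MAD2L1 was 0.708, 0.820 and 0.716 in controls and 1.42, 1.27 and 1.39 after butyrate. For BUB1B the difference was 1.04 (0.60 to 1.49, limma adjusted p = 0.00026) and for TTK it was 1.51 (0.85 to 2.17, limma adjusted p = 0.00030). AURKB thus crossed from below to above the MAD2L1 level, while BUB1B and TTK stayed below it in every culture. Over the 14 alternatives the difference ranged from 0.89 to 1.33 for BUB1B and from 1.11 to 2.27 for TTK. Both were largest with a pseudocount of 1, so their size depends on the pseudocount, and the level of TTK is uncertain. INCENP differed by 1.85 (1.35 to 2.35, limma adjusted p = 2.9e-06), with ratios of 0.452, 0.590 and 0.533 in controls and 2.41, 2.42 and 1.28 after butyrate. BUB3 differed by 3.67 (3.43 to 3.91, limma adjusted p = 6.5e-13), with ratios of 3.36, 3.83 and 3.40 in controls and 45.9, 54.0 and 44.4 after butyrate.

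BUB1 and BIRC5 were not distinguished from MAD2L1. The difference for BUB1 was -0.0049 with a 95% confidence interval of -0.56 to 0.55 (limma adjusted p = 0.985). For BIRC5 it was -0.035 with an interval of -0.33 to 0.26 (limma adjusted p = 0.805). These intervals leave room for differences up to their ends, so the falls are not shown to be equal. The ratios of BIRC5 to MAD2L1 overlapped, at 2.23, 2.54 and 2.10 in controls and 2.16, 2.63 and 2.18 after butyrate. Those of BUB1 were 0.433, 0.540 and 0.494 in controls and 0.727, 0.366 and 0.336 after butyrate. With a pseudocount of 1 in place of 0.1 both genes differed from MAD2L1, BUB1 by 0.45 (limma adjusted p = 0.018) and BIRC5 by -0.35 (limma adjusted p = 0.011).

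**Figure D4:**
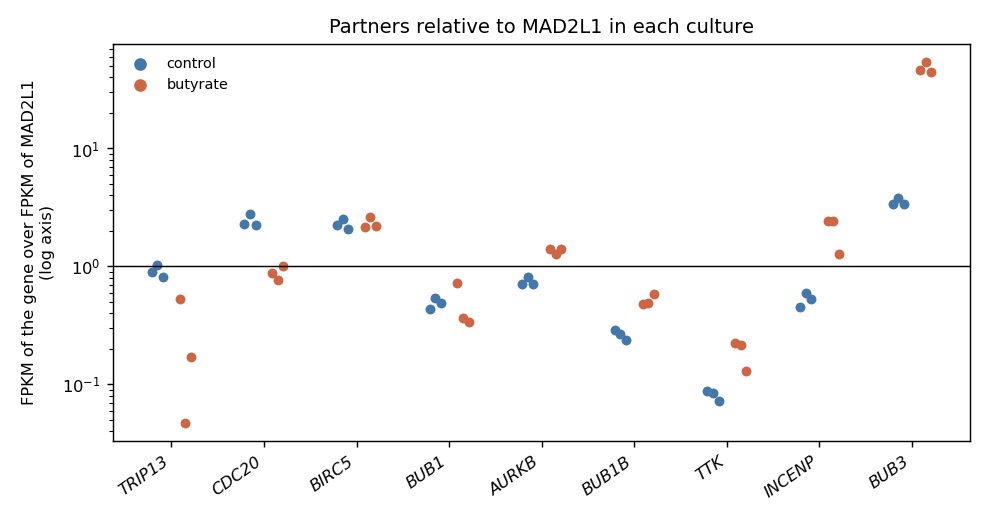
FPKM of each partner divided by that of MAD2L1 in the same culture, on a log axis, with control and butyrate cultures as separate points and a line at equal FPKM. TRIP13 and CDC20 move down, BIRC5 and BUB1 overlap between groups, and the 5 genes to their right move up, BUB3 from between 3.36 and 3.83 to 44.4 or more.

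The order of the levels changed accordingly. In controls BUB3 was highest, followed by CDC20, BIRC5, MAD2L1, TRIP13, AURKB, INCENP, BUB1, BUB1B and TTK. The ranges over cultures of neighbours in this order were separate except for MAD2L1 with TRIP13 and INCENP with BUB1. After butyrate the order was BUB3, BIRC5, INCENP, AURKB, MAD2L1, CDC20, BUB1B, BUB1, TRIP13 and TTK. Only BUB3 and BIRC5, AURKB and MAD2L1, and CDC20 and BUB1B were then separated as neighbours. CDC20 had moved from the second place to the sixth and INCENP from the seventh to the third.

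Among 9 other genes of the checkpoint, 8 fell, none rose and 1 was not called, beside 25.9% lower and 32.5% higher over all genes tested. Their median log2 fold change was -1.18 beside 0.10 over all genes. SPDL1, which brings dynein to kinetochores, went from 22.3 ± 0.726 to 0.928 ± 0.408 FPKM, a log2 fold change of -4.54 (limma adjusted p = 3.1e-06). KNL1 (listed as CASC5), the kinetochore scaffold on which BUB1 and BUB3 assemble, fell by 3.15 on the log2 scale (limma adjusted p = 1.5e-05). These were the only DEGs of the list, beside 1.51% downregulated DEGs over all genes tested. MAD1L1, the partner that holds MAD2 at the kinetochore, went from 5.52 ± 1.06 to 2.36 ± 0.260 FPKM, a log2 fold change of -1.18 (limma adjusted p = 0.00052). MAD1L1 was at 0.192, 0.148 and 0.171 of the MAD2L1 level in controls and at 1.61, 2.04 and 1.48 times that level after butyrate. A rise relative to MAD2L1 was called for 99.3% of all genes. The RZZ complex genes KNTC1, ZW10 and ZWILCH fell by 2.65, 0.85 and 0.69 on the log2 scale, and ZNF207, which brings BUB3 to kinetochores, fell by 0.51. The nuclear pore gene TPR was not called at -0.19 (limma adjusted p = 0.075).

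The genes of the APC/C, which the checkpoint inhibits, were taken as core subunits and as regulators and targets, and the lists were not tested against each other. Over all genes tested, 25.9% were lower, 32.5% higher and 1.51% downregulated DEGs. Of 14 core subunits, 10 fell, 2 rose and 2 were not called, without a DEG and with a median of -0.44 on the log2 scale. After rescaling to a common sum 9 fell and 2 rose, since ANAPC10 lost its call, and under quantile normalization 10 fell and 3 rose, with ANAPC11 called higher. The deepest fall was in ANAPC15, a subunit that helps release the checkpoint complex from the APC/C, which went from 44.2 ± 6.28 to 16.7 ± 2.32 FPKM, a log2 fold change of -1.40 (limma adjusted p = 2.9e-05). ANAPC2 and ANAPC13 were higher by 0.21 and 0.23 on the log2 scale (limma adjusted p = 0.042 and 0.0062). Among 9 regulators and targets, 8 fell and 7 of them were downregulated DEGs, with a median of -4.32. UBE2C, the enzyme that primes APC/C substrates with ubiquitin, went from 188 ± 15.3 to 3.59 ± 1.06 FPKM (log2 fold change -5.71, limma adjusted p = 1.3e-07). Securin (PTTG1) and cyclin B1 (CCNB1), whose destruction starts anaphase, fell by 4.98 and 5.37 on the log2 scale. PTTG1 and ANAPC2 each have 2 entries, and the values given are those of the entry with the higher mean FPKM. UBE2S, the enzyme that extends the ubiquitin chains, changed by -1.09, less than ANAPC15.

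FZR1, the APC/C activator that takes over from CDC20 as cells leave mitosis, was at 27.4 ± 2.43 FPKM in controls and 30.7 ± 2.49 after butyrate, a log2 fold change of 0.16 that was not called (limma adjusted p = 0.15). FZR1 was called higher when FPKM were rescaled to a common sum of 1000000 (0.29) and under quantile normalization (0.22). The FPKM ratio of FZR1 to CDC20 was 0.374, 0.308 and 0.377 in controls and 24.1, 30.6 and 21.6 after butyrate. CDC20 was thus the more abundant activator transcript in every control and FZR1 in every treated culture.

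All 6 genes that work beside the passenger complex fell and 3 were downregulated DEGs, with a median log2 fold change of -3.82. Over all genes tested, 25.9% were lower and 1.51% downregulated DEGs. KIF20A, the kinesin that moves the complex to the anaphase midzone, fell by 5.50 on the log2 scale from 36.2 ± 0.855 FPKM (limma adjusted p = 7.5e-08). The shugoshins SGO1 and SGO2, which protect centromeric cohesion, fell by 4.34 and 1.80, and HASPIN, whose histone H3 mark is read by survivin, fell by 3.29. KIF2C, the AURKB-regulated microtubule depolymerase, fell by 4.99.

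Relatives of AURKB, MAD2L1 and BIRC5 were looked up for comparison. AURKA, the spindle pole kinase related to AURKB, went from 26.5 ± 0.407 to 0.716 ± 0.122 FPKM, a log2 fold change of -5.04 (limma adjusted p = 5.8e-08), and its activators TPX2 and BORA fell by 3.12 and 1.80. AURKC, the germ-cell relative, was at 9.34 ± 0.741 FPKM in controls and 9.61 ± 1.29 after butyrate, a log2 fold change of 0.03 (limma adjusted p = 0.82). MAD2L2, a HORMA-domain relative of MAD2L1 that works in DNA repair, was at 24.1 ± 2.75 and 23.4 ± 4.12 FPKM, a log2 fold change of -0.05 (limma adjusted p = 0.76). The relatives HORMAD1, at 0 in all 6 cultures, and HORMAD2 were too low to be tested. MAD2L1 exceeded MAD2L2 in every control, where the ratio of MAD2L2 to MAD2L1 was 0.777, 0.719 and 0.745, while after butyrate the ratio was 15.3, 21.6 and 14.1. Such a rise relative to MAD2L1 was called for 99.3% of all genes. Of the 6 relatives of BIRC5 in the family of inhibitors of apoptosis, 4 could be tested and none was called, with log2 fold changes of 0.13 for BIRC2, -0.08 for BIRC3, 0.11 for BIRC6 and 0.35 for XIAP. Over all genes tested, 6578 of 15813 were not called. Genes of the phosphatases PP1 and PP2A-B56, which reverse TTK and AURKB phosphorylation, went both ways, with 3 of 10 lower, 3 higher and 4 not called, near the 25.9% lower and 32.5% higher of all genes tested, and a median of 0.01 (2 lower and 5 higher after rescaling to a common sum, 2 and 4 under quantile normalization).

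**Figure D5:**
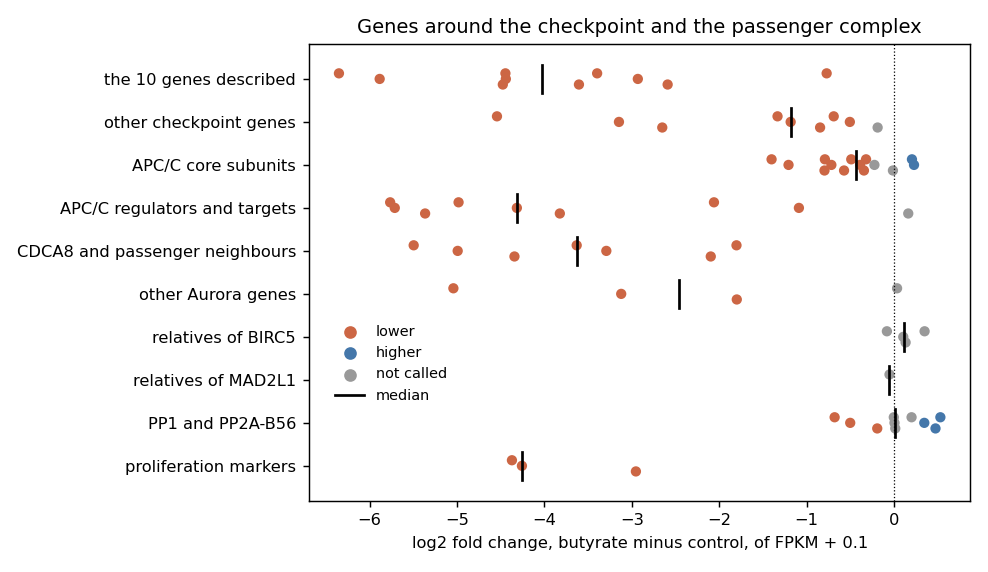
Log2 fold change (butyrate minus control) of FPKM + 0.1 for each tested gene of the 10 described and of 9 related lists, coloured by whether the gene was lower, higher or not called, with a bar at the median of each list. CDCA8 is plotted with the passenger complex neighbours. The regulators and targets of the APC/C have a median of -4.32 and its core subunits a median of -0.44. The tested relatives of BIRC5 lie near 0, and so does MAD2L2, the only relative of MAD2L1 that could be tested.

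The nearest tested gene without overlap was taken on each side of the 10. Of these 20 neighbours, 6 fell, 9 rose and 5 were not called, with a median log2 fold change of 0.42. Among all genes tested 25.9% were lower and 32.5% higher. Some neighbours lie very close. BRD9, which lies 6 bp from TRIP13, was at 26.9 ± 0.667 FPKM in controls and 12.7 ± 1.57 after butyrate, a log2 fold change of -1.08. ELOVL1, 173 bp from CDC20, had a log2 fold change of -0.57. Both neighbours were named after their values were seen, for their closeness, and the log2 fold changes of TRIP13 and CDC20 were -6.35 and -5.89. LOC107131970, 234 bp from INCENP and also named after its values were seen, was at 6.10, 12.3 and 17.5 FPKM in controls and 2.63, 3.09 and 2.74 after butyrate. The counting is not said to use strand, and without it reads near the gene ends could at such distances be assigned to either entry. This was not tested.

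The pattern of MAD2L1 over the 6 cultures was compared with that of 7805 other named genes (LOC entries left out) whose control FPKM averaged at least 5, by the root mean square difference of the log2 values after each gene was set to its own control mean. The 5 nearest genes were NEK2 at 0.158, TOP2A at 0.184, CKS2 at 0.199, CHTF18 at 0.222 and HIST1H2AJ at 0.229, the last a histone gene with near-identical copies and so uncertain. BIRC5, at 0.122, was nearer to MAD2L1 than any of these candidates. The distances were taken with a pseudocount of 0.1 only, and with 1 the fall of BIRC5 differed from that of MAD2L1 by -0.35. BUB1 was at 0.323 with 16 candidates nearer, and AURKB, BUB1B, CDC20, TTK, INCENP, TRIP13 and BUB3 followed at 0.597, 0.747, 1.03, 1.09, 1.35, 1.51 and 2.60.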

How the data were processed

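Per the labels, the authors trimmed paired reads with Trim Galore 0.4.1 and aligned them with STAR. The FPKM that they deposited came from Cufflinks, 1 value per gene and culture, each with a lower and an upper confidence bound. Positions are those of UMD3.1, the build in the processing notes. Sequence accessions were assigned to chromosomes through gene names in RefSeq (ARS-UCD2.0), of which no coordinate was used. Effective fragments per culture were approximated from the bounds. Entries with a failed estimate (2) were removed. Genes whose FPKM averaged 0.1 or more (15813) entered the fit, made on log2(FPKM + 0.1) by limma 3.58.1 with its trend option, under R 4.3.3. Fold changes on this scale understate those of low genes. A count model was not used, FPKM being no counts. P-values were adjusted over all genes tested. Exact permutation tests used scipy 1.17.1. The fits were also run on simulated data with few changed genes and independent noise. These data differ from that setting, so no support is drawn from it.

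The 10 genes were named in full, with genes of the related lists and the 5 genes nearest to MAD2L1. Where a listed name had several entries, the entry with the highest mean FPKM stood for it. The 10 genes and the lists were chosen with earlier results of these data known. Alternatives were other pseudocounts, filters and scalings, no trend, a replicate block, and the omission of each culture.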

Additional observations from a re-analysis of the deposited data

How the results depend on the processing

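All 10 genes fell under each of the 14 alternatives. The number of downregulated DEGs among them was 9, and it was 7 with a pseudocount of 0.01, 8 with 1, 6 without a filter, 6 without the trend and 6 to 7 with a culture left out. MAD2L1, CDC20, BIRC5, AURKB and BUB1B met the DEG rule in all 14, BUB1 in 13, TRIP13 in 7, INCENP in 6 and TTK in 4. The deviations of same-numbered cultures correlated at 0.0228, -0.0043 and 0.0018, so the numbers were not taken as pairs, and with a replicate block there were 7 DEGs, without TTK and INCENP.

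The difference from MAD2L1 kept its direction and call in all 14 for the 7 partners that differed. That of BUB1 was 0.45 with a pseudocount of 1 and -0.31 to 0.18 with a culture left out. That of BIRC5 was 0.014 with a pseudocount of 0.01, -0.35 with 1, 0.11 under quantile normalization and -0.12 to 0.042 with a culture left out. The cause was not tested.

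The median log2 fold change of all genes was 0.10, and it was 0.23 after rescaling to a common sum and -0.045 under quantile normalization, where BUB3 changed by -0.65 and -0.63. The low FPKM of the treated cultures limit their precision.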
